A study of Mus musculus with 6 samples.

Results

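The major histocompatibility complex class II molecules and their invariant chain were described here across macrophages with and without melittin, through 9 genes: HLA-DRA, HLA-DRB1, HLA-DQB1, HLA-DPA1, HLA-DPB1, HLA-DMA, HLA-DMB, CD74 and CIITA. Members were taken by name from the annotated expression table, which held all 9 among its 20036 genes. The cells, THP-1, come from a human monocytic leukaemia and were turned into adherent macrophage-like cells by PMA, a phorbol ester, at 100 ng/ml over 48 h, in the bottom compartment of a Transwell (a well divided by a porous membrane). In the design text, tumour cells were placed in the upper chamber and the co-culture received 3 µg/ml of melittin, the main peptide of bee venom, for 48 h, after which RNA of the macrophages was sequenced. There were 3 melittin libraries and 3 control libraries (labelled NC), all of the same line and without a genetic change given in the labels. The labels do not say what the controls received, nor whether tumour cells stood above them, so melittin and the co-culture cannot be told apart. Melittin was added to the co-culture as a whole, so its action on the macrophages themselves and its action through the tumour cells cannot be told apart either. A leukaemia line stands for macrophages only in part, and the name of the tumour line is not given in the labels.

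Class II molecules show peptides from endosomes to CD4+ T cells. An alpha and a beta chain (DR, DQ or DP) pair in the endoplasmic reticulum with the invariant chain CD74, which fills the peptide groove and carries the complex to endosomes, where proteases cut CD74 down to the CLIP fragment and HLA-DM, a dimer of the HLA-DMA and HLA-DMB products, exchanges CLIP for peptide. Transcription of these genes depends on CIITA, a coactivator that does not bind DNA itself but is recruited by a complex of RFX, CREB and NF-Y proteins on the class II promoters. Macrophages carry modest class II levels at rest, and interferon gamma is the classical signal that raises CIITA and with it class II.

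Library totals ran from 16001423 to 19597781 counts, with 14195 to 14440 genes detected. Of 12029 genes tested by edgeR's quasi-likelihood test, with p adjusted by the Benjamini-Hochberg method over all of them and a threshold of 0.05, 76.4% differed between the groups: 38.1% were higher and 38.3% lower with melittin. A call in this comparison is therefore common, and the members' counts are to be read against those shares. Scaling also matters for the direction of small changes: with TMM scaling 49.8% of the called genes were higher (4578, against 4612 lower), and with library totals alone 33.6% were (3159, against 6244), since the median log2 fold change over all genes moved from -0.0069 to -0.24. Values below are CPM (counts scaled to a common library size) on the TMM scale, with ± as the SD over 3 libraries, unless FPKM (per length and library total) is named. Whether the libraries of a group are separate cultures is not in the labels, and the p-values then rest on a spread that may be only technical. Because bulk RNA was measured, more cells with class II transcripts and more transcript per cell cannot be told apart.

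Of the class II genes, 4 were higher with melittin and past the test, beside 38.1% of all tested genes. In rising order of fold change these were CD74 (1.56-fold), HLA-DRB1 (2.17-fold), HLA-DMA (3.09-fold) and HLA-DQB1 (10.5-fold). HLA-DQB1 reached the low-count filter only through its melittin libraries, so its call is a description. HLA-DRA, too sparse for the low-count filter, went from 3 counts in the 3 controls to 41 in the 3 melittin libraries. CIITA did not pass the test, and HLA-DMB, HLA-DPA1 and HLA-DPB1 were near the limit of detection in both groups. Of the 5 tested members 0 were called lower, beside 38.3% of all tested genes.

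HLA-DRA encodes the DR alpha chain, which pairs with every DR beta chain (chromosome 6, 32439878 to 32445046, plus strand, GRCh38). Its counts were 0, 3 and 0 in controls 1 to 3 and 8, 21 and 12 in melittin libraries 1 to 3, which is 0, 0.141 and 0 CPM against 0.52, 1.17 and 0.804 CPM. Every melittin library stood above every control, and 2 of 3 controls held no read. A count of 0 allows up to 3 counts, or 0.148 and 0.173 CPM in those 2 controls. The ratio of pooled counts, scaled by library size, was 16.7 with a 95% exact interval of 5.32 to 84.1 that covers counting error only. The gene was not tested in the main fit. Without the low-count filter edgeR gave an adjusted p of 1.32e-06 and DESeq2 gave 0.000293.

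HLA-DRB1 encodes the common DR beta chain (chromosome 6, 32577902 to 32589848, minus strand). It stood at 5.61, 6.17 and 5.72 CPM in the controls and at 13.4, 11.1 and 13.7 CPM with melittin. The lowest melittin library was well above the highest control. The mean rose from 5.83 ± 0.296 to 12.7 ± 1.39 CPM, with a log2 fold change of 1.12 (SE 0.118, edgeR adjusted p = 2.19e-09). Reads of HLA-DRB1 and of its near-identical copy HLA-DRB5 cannot be assigned with certainty, and whether the line's alleles match the reference was not tested.

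HLA-DQB1 encodes the DQ beta chain (chromosome 6, 32659467 to 32668383, minus strand) and showed the largest fold change among the tested members. Its counts were 4, 4 and 3 in control libraries against 32, 34 and 32 in melittin libraries, or 0.197, 0.188 and 0.173 CPM against 2.08, 1.89 and 2.14 CPM. Both groups were tight, and they were far apart. The mean rose from 0.186 ± 0.0119 to 2.04 ± 0.131 CPM, with a log2 fold change of 3.40 (SE 0.389, edgeR adjusted p = 9.79e-09). The ratio of pooled counts was 10.9 (95% exact interval 5.81 to 22.5). HLA-DQB1 reached the low-count filter only through its melittin libraries, so once tested it had to differ, and HLA-DQB2 is a near-identical copy.

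The DP chains were barely detected. HLA-DPA1, the DP alpha chain (chromosome 6, 33064569 to 33080775, minus strand), had 1, 0 and 2 counts in control libraries against 3, 3 and 2 in melittin libraries, a ratio of 3.25 whose 95% exact interval of 0.781 to 19.0 includes no difference. HLA-DPB1, the DP beta chain (33075990 to 33089696, plus strand), had 1 count in all 6 libraries together, in melittin library 1. In the controls, 0 counts over 3 libraries allow up to 0.0509 CPM, so no fold is given. The DP genes overlap on opposite strands, and the strand setting of the counting is not given in the sources used here.

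HLA-DMA encodes the alpha chain of the peptide exchanger HLA-DM (chromosome 6, 32948613 to 32969094, minus strand). It stood at 1.72, 1.84 and 0.751 CPM in the controls and at 5.2, 4.78 and 3.62 CPM with melittin. Control 3 was lower than the other controls, and melittin library 3 the lowest of its group, yet the groups did not overlap. The mean rose from 1.44 ± 0.596 to 4.53 ± 0.821 CPM, with a log2 fold change of 1.63 (SE 0.241, edgeR adjusted p = 8.62e-07). HLA-DMA overlaps BRD2 on the opposite strand. BRD2, a chromatin reader, was far more abundant and, on the TMM scale, rose from 315 ± 4.98 to 373 ± 2.05 CPM, with a log2 fold change of 0.24 that was 0.01, not past the threshold, with library totals alone. A part of BRD2 reads in the HLA-DMA count was not tested.

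HLA-DMB, the beta chain of HLA-DM (chromosome 6, 32934629 to 32941028, minus strand), had 4, 1 and 0 counts in control libraries against 2, 7 and 1 in melittin libraries. The groups overlapped and the ratio of 2.44 had a 95% exact interval of 0.76 to 9.1. A difference in HLA-DMB was thus not detectable at these counts, while its partner chain was called. Both genes overlap an unnamed gene of the table on their own strand that had 0 counts in every library.

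CD74, the invariant chain, lies outside the class II region (chromosome 5, 150401637 to 150412969, minus strand) and was the most abundant member. It stood at 62.9, 65.1 and 69.1 CPM in the controls and at 104, 101 and 103 CPM with melittin. The groups were far apart relative to the spread within them. The mean rose from 65.7 ± 3.15 to 103 ± 1.46 CPM, with a log2 fold change of 0.64 (SE 0.0417, edgeR adjusted p = 8.41e-14). Tested against a change of 1.5-fold rather than against none, CD74 missed the threshold (adjusted p = 0.0805).

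CIITA, the coactivator of all these genes (chromosome 16, 10866222 to 10943021, plus strand), was low in every library. Its counts were 15, 9 and 9 in the controls and 13, 18 and 8 with melittin, or 0.738, 0.424 and 0.52 CPM against 0.845, 1 and 0.536 CPM. The groups overlapped: control 1 stood above melittin library 3. The log2 fold change was 0.52 (SE 0.405, edgeR adjusted p = 0.248), and the ratio of pooled counts was 1.44 with a 95% exact interval of 0.883 to 2.36. The interval leaves room for no change and for a rise of the size seen in HLA-DRB1. CIITA did not pass in any of the 16 settings that tested it, the main one included.

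**Figure D1:**
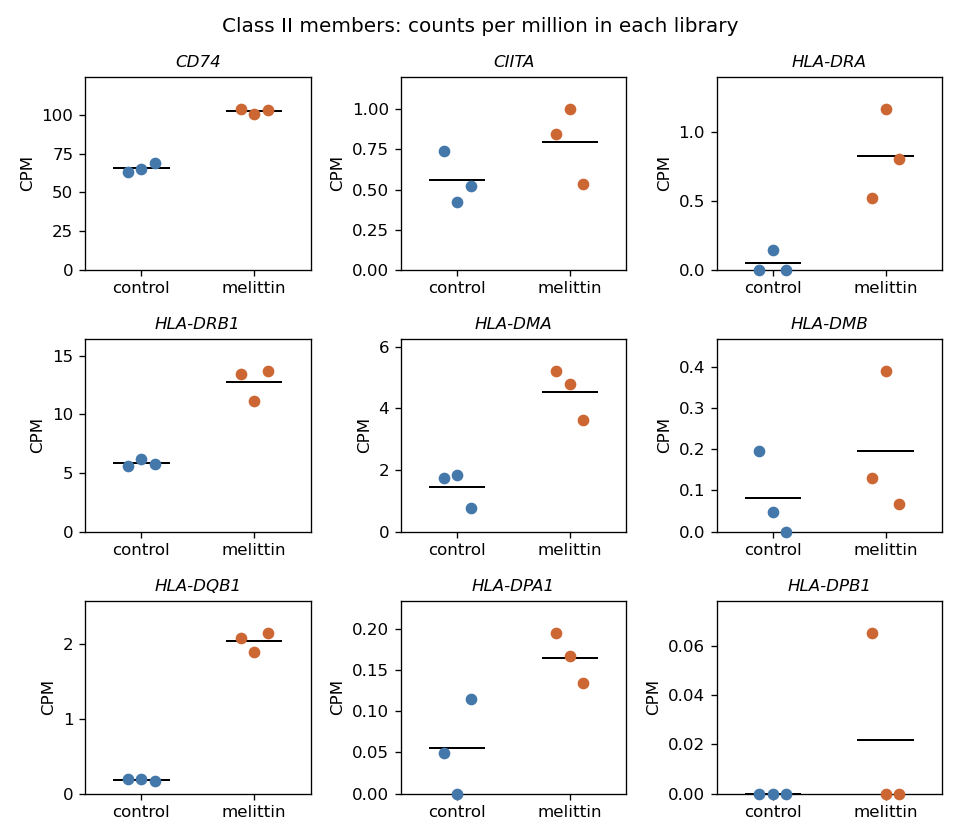
CPM (linear axes from 0) of the 9 members in each library; points are the 3 control and 3 melittin libraries and the bar is the group mean. HLA-DRA, HLA-DRB1, HLA-DMA, HLA-DQB1, HLA-DPA1 and CD74 have non-overlapping groups with melittin higher. For HLA-DPA1 this rests on at most 3 counts a library and on the TMM scaling. CIITA and HLA-DMB overlap, and HLA-DPB1 has 1 count in all.

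Of the 9 members, 5 passed the low-count filter and 4 of those were called higher, beside 38.1% of all tested genes called higher. The median log2 fold change of the 5 was 1.12, against -0.0069 over all 12029 tested genes. Since HLA-DQB1 entered only through its high group, this count is a description of the genes that could be tested and not of all members. Groups did not overlap in CPM for 6 of 9 members, HLA-DRA and HLA-DPA1 included, each with melittin above control. For HLA-DPA1 this depends on the TMM scaling: in FPKM, control 3 (0.0217) stood above melittin library 3 (0.0215). Among all tested genes 77.4% had non-overlapping groups, 38.3% with melittin higher and 39.1% with melittin lower. Direction and call of the 4 genes held with library totals alone, where the log2 fold changes were 0.41 for CD74, 0.89 for HLA-DRB1, 1.40 for HLA-DMA and 3.17 for HLA-DQB1. They also held without each library in turn, over which HLA-DMA ranged from 1.35 to 1.83 and CD74 from 0.61 to 0.68.

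Levels can be compared between genes only per length, as FPKM. The deposited lengths run from 1244 bases for HLA-DRA to 22553 for CIITA among the members. Whether they match the transcripts made in these cells was not tested, and levels and order between genes depend on them. In the controls CD74 was highest at 15.7 ± 0.739 FPKM, followed by HLA-DRB1 at 2.05 ± 0.105 and HLA-DMA at 0.618 ± 0.257 FPKM. Each of these 3 stood above the next in every library. From HLA-DQB1 (0.0412 FPKM) downward through HLA-DRA (0.041), CIITA (0.0269), HLA-DMB (0.0191) and HLA-DPA1 (0.0103) to HLA-DPB1 (0), neighbours overlapped and their order is not resolved.

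With melittin the same 3 genes led, CD74 at 20.9 ± 0.354, HLA-DRB1 at 3.81 ± 0.424 and HLA-DMA at 1.66 ± 0.304 FPKM. HLA-DRA (0.616 ± 0.239 FPKM) and HLA-DQB1 (0.384 ± 0.0253 FPKM) overlapped each other and stood clear of HLA-DMB (0.0391), CIITA (0.0325), HLA-DPA1 (0.0266) and HLA-DPB1 (0.0038). HLA-DRA and HLA-DQB1 thus left the group of members with the lowest FPKM, and the remaining 4 stayed in it. For CIITA, whose deposited length is the largest among the members, a low FPKM is not low detection. It had 39 counts over the melittin libraries, against 41 for HLA-DRA.

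Class I genes, whose products show cytosolic peptides to CD8+ T cells, give a scale. B2M, the shared light chain, stood at 1845 ± 15.6 FPKM in the controls and 2214 ± 107 FPKM with melittin, HLA-B at 101 ± 1.16 and 111 ± 7.29 FPKM, and HLA-C at 15.1 ± 0.293 and 18.3 ± 2.12 FPKM. The invariant chain was thus at about the level of HLA-C in FPKM, and the class II alpha and beta chains were below HLA-B, HLA-C and HLA-E. Other class I heavy chains were lower: HLA-F (0.0159 FPKM in the controls and 0.0141 with melittin) and HLA-G (no count) were below HLA-DRB1 and HLA-DMA. HLA-E, a ligand of natural killer cell receptors, had the largest change of these class I genes, with a log2 fold change of 1.31 (edgeR adjusted p = 2.96e-26). HLA-C (0.50), B2M (0.49) and HLA-B (0.37) rose less. Of 16 listed class I genes 14 were tested, with 8 higher, 4 lower and a median log2 fold change of 0.23. Over all tested genes 38.1% were higher and 38.3% lower. With library totals alone 5 were higher and 6 lower, and the median was -0.0047. The 4 lower on the TMM scale were NLRC5 (-0.53), the class I counterpart of CIITA, the peptide transporter subunit TAP2 (-0.92), the trimming peptidase ERAP1 (-1.07) and the immunoproteasome subunit PSMB10 (-0.50).

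**Figure D2:**
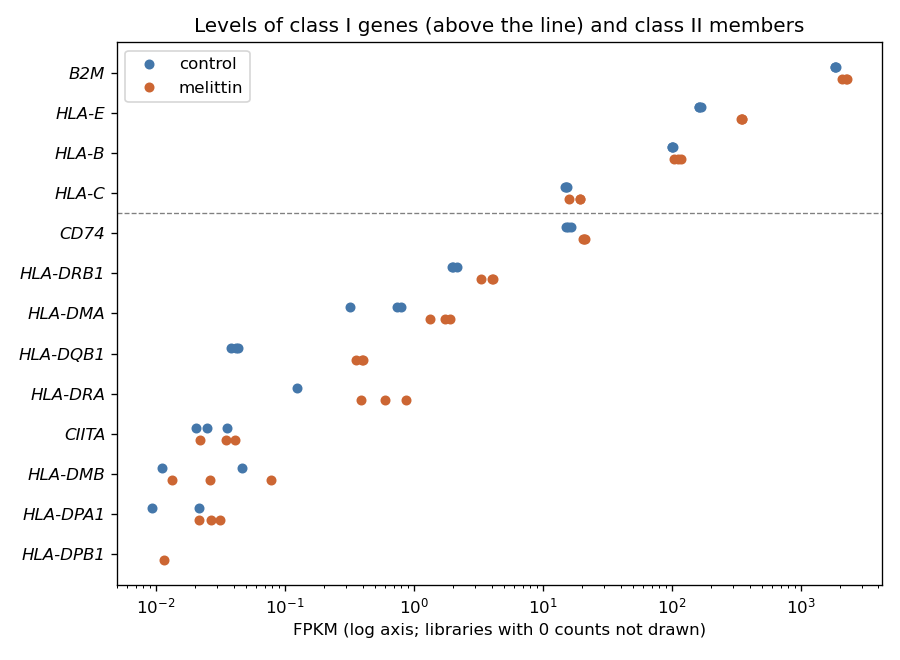
FPKM of 4 class I genes (above the dashed line) and the 9 class II members in each library, on a log axis; libraries with 0 counts are not drawn. CD74 sits at the level of HLA-C, HLA-DRB1 and HLA-DMA follow, and HLA-DQB1 and HLA-DRA move from under 0.13 FPKM in the controls to 0.356 FPKM or more with melittin.

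Shares of one member within a pair of members do not depend on how libraries are scaled, and 7 were set up. An exact two-sided permutation test over 3 against 3 libraries cannot go below p = 0.1, so none can pass 0.05. HLA-DRA made up 0, 2.24 and 0% of the HLA-DRA plus HLA-DRB1 counts in control libraries against 3.74, 9.50 and 5.56% in melittin libraries. The DR alpha transcript was the smaller part of the pair in every library. HLA-DQB1 made up 3.10 ± 0.253% of the HLA-DQB1 plus HLA-DRB1 counts in control libraries against 13.8 ± 0.596% in melittin libraries. The share of CD74 against the chains was lower with melittin: its share of the CD74 plus HLA-DRB1 counts was 91.8 ± 0.507% in the controls and 89.0 ± 0.956% with melittin, and its share against HLA-DMA 97.8 ± 0.942% and 95.8 ± 0.739%. Groups did not overlap for these shares or for CD74 against HLA-DRA (99.9 ± 0.125% and 99.2 ± 0.324%), with an exact permutation p of 0.1 for each and 0.12 after Benjamini-Hochberg adjustment over the 6 shares with a value in every library. HLA-DMA made up 95.7 ± 5.35% of the HLA-DM counts in control libraries against 96.1 ± 3.13% in melittin libraries (exact permutation p = 0.8), a difference whose sign depends on single libraries. The DP share was undefined in control 2, which had no DP count.

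Of 8 other class II chain genes listed, 6 were in the table and 0 reached the low-count filter. HLA-DRB5, a further DR beta chain, had 7, 9 and 3 counts in control libraries against 14, 11 and 4 in melittin libraries, a ratio of 1.86 (95% exact interval 1.01 to 3.51) with overlapping groups. HLA-DQA1, the alpha partner of HLA-DQB1, had 6, 5 and 5 counts in control libraries against 5, 14 and 10 in melittin libraries. Its ratio was 2.21 (1.16 to 4.36), less than that of its beta chain, and its groups did not overlap in CPM. In FPKM they did, with control 1 at 0.0465 and melittin library 1 at 0.0437. Each of these genes passed when 1 library was left out: HLA-DQA1 without melittin library 1 (edgeR adjusted p = 0.0213) and HLA-DRB5 without melittin library 3 (0.0457), and neither passed with all 6 libraries and no filter (0.103 and 0.187). HLA-DOB, the beta chain of the HLA-DM inhibitor HLA-DO, had 2, 5 and 1 counts in control libraries against 0, 0 and 2 in melittin libraries, a ratio of 0.305 (0.0315 to 1.53). Its partner HLA-DOA and HLA-DQB2 had no count, and HLA-DQA2 had 2 counts, both in control 1.

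The stretch from HLA-DRA to HLA-DPB1 (chromosome 6, 32439878 to 33089696) holds 20 genes of the table, 7 of them members. Of the other 13, 5 were tested, and they lie between HLA-DOB and HLA-DOA. TAP2 fell by 0.92 on the log2 scale (edgeR adjusted p = 3.9e-14). The immunoproteasome subunits PSMB8 (0.22) and PSMB9 (0.32) rose on the TMM scale, but with library totals alone PSMB8 was at -0.0086 and PSMB9 at 0.09, neither past the threshold. TAP1 did not pass (0.06, adjusted p = 0.101) and was called lower with library totals alone (-0.17, adjusted p = 8.96e-05). The 3 tested class II members of this stretch had log2 fold changes of at least 1.12, and each of the 5 other tested genes was at 0.32 or less.

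**Figure D3:**
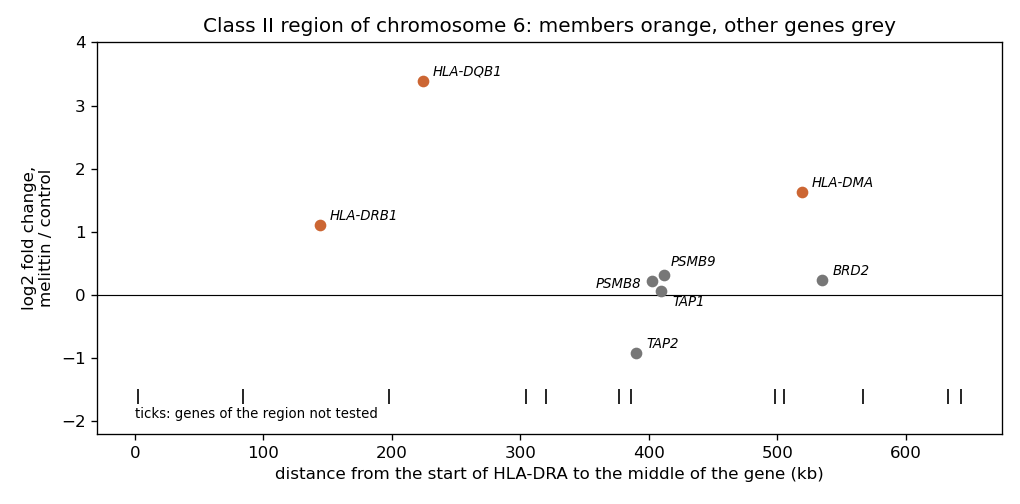
Log2 fold change, melittin over control, of the tested genes between HLA-DRA and HLA-DPB1, against the distance of the gene's middle from the start of HLA-DRA in kilobases; ticks mark genes that were not tested. The class II members HLA-DRB1, HLA-DQB1 and HLA-DMA stand at 1.12, 3.40 and 1.63, and TAP2, PSMB8, PSMB9, TAP1 and BRD2 between -0.92 and 0.32.

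The machinery that acts on class II genes and proteins was read from lists of 77 genes in 8 groups, the other class II chains included and class I left out. Of these 60 were tested, 32 were higher and 22 lower, with a median log2 fold change of 0.26. Over all tested genes 38.1% were higher and 38.3% lower, and the counts of each list are to be read beside those shares. With library totals alone 27 were higher and 28 lower, so the lists as a whole had no direction that held across scalings.

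Factors that sit on class II promoters were mostly lower: 7 of 10 fell and 3 rose, with a median log2 fold change of -0.52. Over all tested genes 38.3% were lower and 38.1% higher. RFX5, the large RFX subunit that binds the X box, fell from 91.7 ± 4.81 to 70.2 ± 1.60 CPM (log2 fold change -0.39, edgeR adjusted p = 7.43e-09), and its partner RFXAP fell from 3.22 ± 0.541 to 1.65 ± 0.412 CPM (-0.97, adjusted p = 0.000516). NFYA, the subunit of NF-Y that reads the CCAAT box, went the other way, from 60.1 ± 2.28 to 129 ± 7.61 CPM (1.10, adjusted p = 1.88e-18). Its partners NFYB (-0.66) and NFYC (-0.28) fell. The acetyltransferases that CIITA recruits were all lower: CREBBP fell from 62.5 ± 1.06 to 24.9 ± 0.593 CPM (-1.33, adjusted p = 3.79e-18), EP300 by 0.65 and KAT2B by 0.91 on the log2 scale. RFXANK (0.26) and CREB1 (0.25) were called higher with TMM scaling, but were at 0.03 and 0.02 with library totals alone, neither past the threshold, which leaves 1 higher and 7 lower there.

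Genes of the interferon gamma route to CIITA did not move as a group: of 9 tested, 4 were higher and 4 lower, and the median of 0.08 becomes -0.15 with library totals alone. IFNG, the cytokine itself, had no count in any library. The receptor chains IFNGR1 (-0.17) and IFNGR2 (-0.24) and the kinase JAK2 (-0.88) fell, and the kinase JAK1 rose by 0.72. SOCS1, an inhibitor of these kinases, rose from 0.234 ± 0.0556 to 1.83 ± 0.876 CPM (log2 fold change 2.94, edgeR adjusted p = 8.4e-07). It reached the low-count filter only through its melittin libraries, so its call is a description, and it is 1 of the 4 higher. IRF1, an interferon-induced factor that acts on the CIITA promoter, did not pass (0.08, adjusted p = 0.337), while USF1 (0.56), which binds the same promoter, and IRF2 (0.38) rose.

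Lineage factors that act on CIITA in myeloid and B cells were led by IRF8. It rose from 12.9, 12.8 and 10.9 CPM in the controls to 93.6, 89.5 and 94.0 CPM with melittin, 7.54-fold (log2 fold change 2.92, SE 0.0616, edgeR adjusted p = 8.71e-25). IRF4, a close relative of IRF8, had 0, 2 and 0 counts in control libraries against 11, 12 and 4 in melittin libraries, a ratio of 16.5 (95% exact interval 4.14 to 143), and was not tested. SPI1, their DNA-binding partner PU.1, did not pass (0.05, adjusted p = 0.11). It was called lower with library totals alone (-0.18, adjusted p = 6.17e-07) and higher without melittin library 1 (0.06, adjusted p = 0.034). PRDM1, a repressor of CIITA in plasma cells, rose by 0.46 and MYC fell by 1.81 on the log2 scale. The histone methyltransferase EZH2 did not pass (-0.05, adjusted p = 0.447), and with library totals alone it was called lower at -0.29. Of 6 tested genes 3 were higher and 1 lower, and with library totals alone 3 were higher and 3 lower.

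**Figure D4:**
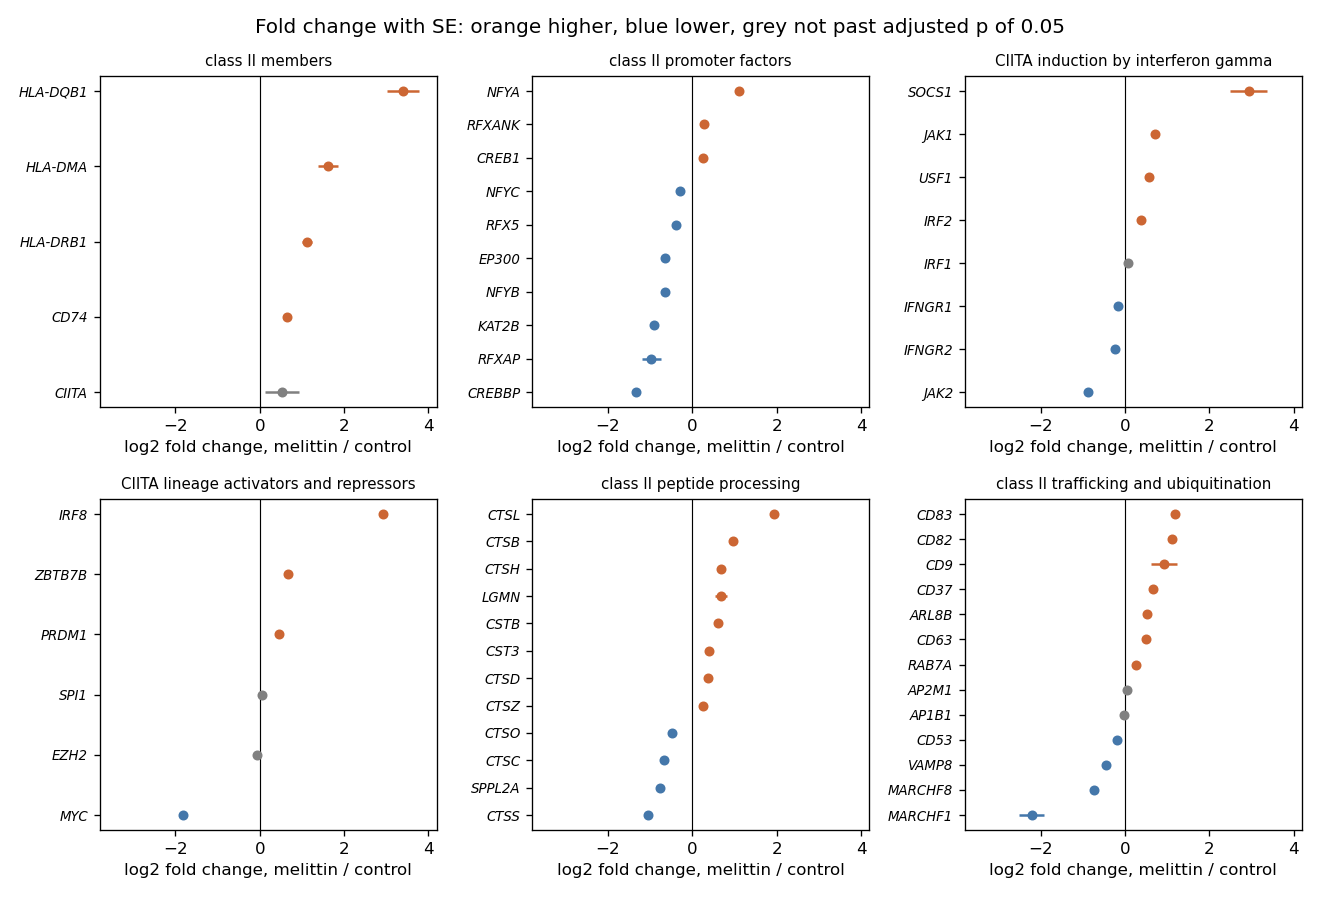
Log2 fold change, melittin over control, with its SE, for tested genes of 6 lists; orange marks higher, blue lower and grey not past an adjusted p of 0.05. The tested members lie between 0.52 and 3.40, with CIITA grey, while promoter factors lie between -1.33 (CREBBP) and 1.10 (NFYA).

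Among the proteases and inhibitors of the class II pathway 8 of 12 tested genes rose and 4 fell, beside 38.1% higher and 38.3% lower over all tested genes. With library totals alone 7 rose and 4 fell, and the median log2 fold change was 0.15 in place of 0.38. The proteases that degrade the invariant chain moved in opposite directions. CTSS, the endosomal protease that makes CLIP from CD74 in B cells, dendritic cells and macrophages, stood at 755, 769 and 765 CPM in the controls and at 367, 374 and 361 CPM with melittin. It fell 2.08-fold (log2 fold change -1.05, edgeR adjusted p = 6.05e-24). CTSL, which does that step in mouse thymic epithelium, rose from 700.5 ± 10.7 to 2692 ± 24.99 CPM, 3.84-fold (1.94, adjusted p = 8.7e-32). SPPL2A, the intramembrane protease that clears the last stub of CD74, fell from 185 ± 3.25 to 109 ± 2.44 CPM (-0.76, adjusted p = 6.2e-18). Other lysosomal proteases rose, among them CTSB (0.97), CTSH (0.69), LGMN (0.68) and CTSD (0.37), as did the inhibitors CSTB (0.60) and CST3 (0.38). CTSC (-0.67) and CTSO (-0.48) fell. IFI30, the lysosomal thiol reductase that unfolds antigens, had 5 to 11 counts a library with overlapping groups and was not tested. It overlaps an unnamed gene on its own strand.

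Genes of class II trafficking gave 7 higher, 4 lower and 2 not past the test among 13, and with library totals alone 6 were higher and 6 lower, with a median log2 fold change of 0.03 in place of 0.26. MARCHF1, the ubiquitin ligase that sends surface class II to lysosomes, had the largest change of this list. It stood at 3.25, 3.58 and 2.37 CPM in the controls and at 0.325, 0.834 and 0.804 CPM with melittin, a 4.63-fold fall (log2 fold change -2.21, SE 0.304, edgeR adjusted p = 2.49e-07). Its relative MARCHF8 fell from 31.5 ± 1.5 to 18.9 ± 2.25 CPM (-0.73, adjusted p = 3.02e-09). CD83, a membrane protein that opposes MARCHF1 and keeps class II at the surface, rose from 76.5 ± 1.88 to 175 ± 0.504 CPM (1.19, adjusted p = 7.34e-22). Surface protein was not measured. The tetraspanins that gather with class II and HLA-DM in membranes were mixed: CD82 (1.12), CD37 (0.66) and CD63 (0.50) rose, and CD53 (-0.19) fell.

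CD74 at the cell surface also serves as the receptor of the cytokine MIF. MIF had 0, 3 and 2 counts in control libraries against 0, 0 and 2 in melittin libraries, and overlaps an unnamed gene of the table on its own strand. Of the co-receptors, ACKR3 rose from 6.43 ± 0.309 to 17.1 ± 1.22 CPM (log2 fold change 1.40, edgeR adjusted p = 1.84e-12) and CXCR4 fell from 37.2 ± 1.15 to 26.4 ± 1.15 CPM (-0.50, adjusted p = 5.74e-08). CD44, the signalling partner of CD74, was higher by 0.14 with TMM scaling and lower by a log2 fold change of -0.09 with library totals alone.

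Of 8 genes for T cell partners and costimulation 7 were tested, with 5 higher and 1 lower, beside 38.1% and 38.3% of all tested genes. CD40, the receptor through which CD4+ T cells license presenting cells, rose from 20.3 ± 0.886 to 70.4 ± 2.27 CPM (log2 fold change 1.80, edgeR adjusted p = 9.92e-21). CD80, a ligand of CD28, rose from 0.344, 0.282 and 0.347 CPM to 2.41, 4.45 and 2.34 CPM (3.24, adjusted p = 5.2e-09). CD80 too reached the filter only through its melittin libraries, so its call is a description, and it is 1 of the 5 higher. The other CD28 ligand, CD86, did not pass (-0.30, adjusted p = 0.164), but was called lower with library totals alone (-0.53, adjusted p = 0.0153) and without melittin library 2 (-0.52, adjusted p = 0.0359). ICOSLG (1.01), CD4 (0.81) and the adhesion ligand ICAM1 (0.33) rose, and CD58 (-0.43), the ligand of CD2, fell.

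The genes whose profile over the 6 libraries was most like the mean standardized profile of the 5 tested members were BICC1, SNRPD2, TMEM251, MLEC and APRT, with Pearson r of 0.99914 to 0.99794 as a description. All 6 points fall into the groups, and 189 of 11247 candidate genes had r of at least 0.99, so the profile is not particular to these 5 genes. BICC1 stood at 5.95 ± 0.355 and 11.4 ± 0.788 CPM, and MLEC at 202 ± 4.11 and 262 ± 6.02 CPM, in control and melittin libraries.

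Markers of other cells that carry class II were read beside these results. B cell markers were near 0: of 7, 0 reached the filter, their summed level was 0.52 to 0.80 CPM in the controls and 0.89 to 1.21 CPM with melittin, and MS4A1 and BLK had no count. Dendritic cell markers summed to 30.7 to 32.0 CPM and 57.4 to 60.6 CPM. Of 14, 8 were tested, and 4 rose and 4 fell, beside 38.1% higher and 38.3% lower over all tested genes. CCR7, a homing receptor of mature dendritic cells, rose from 0.622 ± 0.206 to 35.9 ± 2.30 CPM (log2 fold change 5.82, edgeR adjusted p = 4.66e-23), with LAMP3 (3.78), BATF3 (1.83) and ZBTB46 (0.24), while CD1A, CD1C, CD1E and FLT3 fell and CLEC10A, FCER1A and CD207 had no count. LAMP3 reached the filter only through melittin libraries, and CD1A and CD1E only through controls. The part of these genes' cells or state in the class II values was not tested.

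Monocyte and macrophage markers, which check the labelled cell type, summed to 2105 to 2131 CPM in the controls and 1568 to 1600 CPM with melittin. Of 13, 12 were tested, with 3 higher and 8 lower, beside 38.1% and 38.3% of all tested genes. CD14 fell from 173 ± 2.19 to 81.1 ± 5.87 CPM, and CD68, a usual macrophage marker, had 1 count in all. The 3 higher were ITGAM (36.0 ± 1.27 to 89.2 ± 4.52 CPM), ITGAX (417 ± 4.81 to 778 ± 14.4 CPM) and TYROBP (log2 fold change 0.23 on the TMM scale). AIF1 did not pass (-0.04, edgeR adjusted p = 0.514). T and NK cell markers summed to 31.2 to 34.1 and 136 to 142 CPM. The 2 of 7 tested, NKG7 and GNLY, rose, GNLY alone from 29.4 ± 1.91 to 130 ± 3.05 CPM, and of the other 5, CD3D and CD8A had no count, CD3G had 5, 3 and 0 counts in control libraries and none with melittin, and CD3E and CD2 had at most 2 counts in a library. Prostate and epithelial markers summed to 64.9 to 68.9 and 93.2 to 105 CPM, with 2 of 10 tested. Of these, EPCAM, KRT18, KRT19 and KLK2 had no count. The part of these transcripts in the class II values was not tested.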

How the data were processed

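RNA of THP-1 macrophages was sequenced in 6 libraries (3 control, 3 melittin, grouped by title). Per the labels' protocols, RNA was extracted with chloroform and made into libraries with a NEBNext Ultra II kit. The build was GRCh38, per the submitters' processing notes. Which aligner, counter, strand setting and annotation were used is not given in the sources used here. In 1 annotated table the authors deposited raw read counts per gene, with names, coordinates and lengths. The deposited FPKM values are the authors' counts divided by gene length and by the library's total, which held within a relative deviation of 2.23e-09. Although the organism label is mouse, the gene identifiers are human, so the mouse reference was not used here and no sequences are printed.

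Counts were compared with edgeR 4.0.16 in R 4.3.3 (filterByExpr by group, TMM, glmQLFit and glmQLFTest, two-sided, Benjamini-Hochberg over 12029 genes, threshold 0.05). Each SE is the absolute log2 fold change over the square root of the test's F value. One count equals 0.0471 to 0.067 CPM. Pooled-count ratios carry exact 95% intervals, and these intervals and the limits of 3 counts cover counting error only, since reads without molecular identifiers are not independent molecules. Replicate pairs differed by more than sampling noise (chi-square per degree of freedom 1.73 to 3.92, against 165 to 197 across groups, over genes with at least 20 counts), so each library counts once. Log2 ratios between members were planned, but a count of 0 in at least 1 library left each undefined, so shares replaced them, and the pairs of CD74 with HLA-DRB1 and HLA-DMA, and of HLA-DQB1 with HLA-DRB1, were added after seeing the data. Named genes are the members, genes of the fixed lists, and the 5 named genes with a mean of at least 1 CPM most like the members' profile. BRD2 was named after its values were seen, for its overlap with HLA-DMA. Members and lists were chosen with earlier results of these data known. Only the edgeR fit was tested on simulated counts. Few genes changed there, in random directions, unlike in these libraries, so scaling under a broad shift was not tested. The shares, intervals and profile likeness were not part of that check. Alternatives used limma 3.58.1 and DESeq2 1.42.0. Some genes of the lists, counted in their totals, are not reported here by name.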

Additional observations from a re-analysis of the deposited data

How the results depend on the processing

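Over the 16 alternatives, which include leaving out each library in turn, 3 to 5 members were called higher and 0 lower. The count was 3 under the test against 1.5-fold, where CD74 missed the threshold, and 5 where the fit took in HLA-DRA, which can reach the low-count filter only through its melittin libraries. Under that test 1761 genes were higher and 1734 lower, and in the pathway lists 15 and 11. The members' median log2 fold change of 1.12 was 0.411 with limma on log2(FPKM + 0.1) and 0.392 on log2(FPKM + 1), scales that understate low genes and are divided by library totals, and both take in all 9 members. Without each library in turn 4394 to 4552 genes were higher and 4440 to 4595 lower.

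Scaling by library totals turned some signs. SPI1 was at -0.183 with library totals alone, -0.183 with limma on log2(FPKM + 0.1) and -0.182 on log2(FPKM + 1). In that order CD44 was at -0.0917, -0.0917 and -0.091, TAP1 at -0.169, -0.167 and -0.162, PSMB8 at -0.0086, -0.0147 and -0.0141, the median of the interferon gamma list at -0.151, -0.143 and -0.0989, and that of the class I list at -0.0047, -0.0147 and -0.0026. The HLA-DMA share of HLA-DM counts differed by -2.68 percentage points without control library 1, -0.42 without melittin library 1, -0.731 without melittin library 3 and up to 2.45 without control library 3. The cause of these changes was not tested, beyond the shift of all genes under library totals.

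With the replicate number as a block 4513 genes were higher and 4537 lower, 4 members were higher, and 32 and 22 genes of the pathway lists were higher and lower. Libraries with the same number did not deviate together (correlations of -0.0461, 0.0178 and -0.0191), so the numbers do not pair them. CIITA, HLA-DRA, HLA-DMB, HLA-DPA1 and HLA-DPB1 had at most 21 counts in a library, which limits what their values can show. Whether their transcripts were few or their reads were lost in mapping or counting was not tested.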
